A study of Spongilla lacustris with 18 samples.

Results

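The genes described here are the nitric oxide synthase, guanylate cyclase and cyclic GMP kinase genes of the freshwater sponge Spongilla lacustris, an animal without nerves or muscles. They were taken from the deposited count table by name: a gene entered when its annotation read guanylate cyclase or nitric oxide synthase, or when it carried the symbol of a guanylate cyclase subunit, a natriuretic peptide receptor, a nitric oxide synthase or a cyclic GMP-dependent protein kinase. Guanylate kinases, which make GDP and not cyclic GMP, were left out. The search gave 12 genes of the 39562 in the table, and all 12 were among the 24125 genes with enough counts to be tested. A gene named NPRL2, c88006-g1, was not taken, because NPR2 appears only inside the full name of a different symbol. One of the 12, the guanylate cyclase c103422-g1, is the lead gene. It was chosen by its lower counts with tryptamine than with DMSO in these same libraries, so its tryptamine values are given as a description without a test.

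Juvenile sponges of the WT genotype had spent 9 days at 18 °C in M-medium and were then exposed to 37.5 µM tryptamine, a trace amine, or to its vehicle, 0.03% DMSO. Whole bodies were collected after 1 h, after 4 h, or after 4 h of exposure, washout and 24 h of recovery. The 6 groups held 3 polyA libraries each, and the label of every group gives whole body as its tissue. The labels do not say that replicates were separate cultures or clones, so p-values measure the spread between these libraries only, part of which may be technical.

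Nitric oxide synthases release nitric oxide from arginine. The gas binds the haem of soluble guanylate cyclase, which then turns GTP into the messenger cyclic GMP, and cyclic GMP acts on kinases, channels and phosphodiesterases. In vertebrates this chain relaxes smooth muscle, and in freshwater sponges nitric oxide signalling has been linked to the contraction of the water canals.

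By role, the 12 genes were 1 nitric oxide synthase, 3 soluble guanylate cyclase genes, 3 guanylate cyclases whose type is not annotated, 2 cyclic GMP-dependent kinases and 3 genes named for proteins that interact with nitric oxide synthase. The synthase, c103457-g1, carries the symbols NOS3, NOS2 and NOS1 together. Its entry pools transcripts of 216 to 5043 bases from 2 components of the transcriptome assembly, so a single sponge relative of the vertebrate set is not shown. The soluble cyclases were GUCY1B3 c102529-g2, GUCY1B2 c102529-g1 and the unnumbered subunit c101919-g1. GUCY1B3 and GUCY1B2 share a component of the assembly, and read pairs that matched more than 1 place were not counted, so the split between these 2 genes is uncertain. The unannotated cyclases were c103422-g1, c101017-g1 and c95303-g1, the kinases were PRKG2,PRKG1 c99896-g1 and PRKG1 c100004-g1, and the partners were NOSIP c101074-g1, NOSTRIN c103567-g1 and NOS1AP c104670-g4. Like the synthase, the entries of GUCY1B3 and c101017-g1 each pool transcripts from 2 components. No gene carried the symbol of a natriuretic peptide receptor.

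The number of read pairs counted per library lay between 11379345 and 23769406, and 3 counts corresponded to 0.126 to 0.264 CPM, the counts scaled to a common library total. This floor covers counting error only. The scaling factors ran from 0.854 to 1.09, and the lowest ones, 0.854 and 0.880, belonged to replicate 2 of the tryptamine and DMSO groups at 4 h. Results that rest on the 4 h groups are given without those libraries where that changes a call. Markers of sponge cell types were present throughout: 38 of 38 choanocyte genes, 5 of 5 archaeocyte genes and 9 of 9 pinacocyte and contractile genes had counts. In whole-body RNA, fewer cells of a type and less RNA per cell cannot be told apart.

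Compared per base of annotated transcript, as RPKM, which divides the CPM by the length in kilobases, the kinase PRKG2,PRKG1 had the highest mean level over the 18 libraries, 189 RPKM. GUCY1B3 followed at 86.6 RPKM and the synthase at 82.5 RPKM. The soluble subunit c101919-g1 measured 45.8 RPKM and the lead cyclase 21.9 RPKM, while NOSTRIN, with 8 to 51 counts a library, measured 0.313 RPKM. The length used here sums all transcripts of a gene, so genes with several overlapping transcripts appear lower than they are. The kinases have 1 transcript each and compare without that limit: PRKG2,PRKG1 stood 7.93 to 15.7 times above PRKG1 in RPKM, with a median of 10.4 over the 18 libraries.

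The lead cyclase c103422-g1 was lower with tryptamine than with DMSO at all 3 times. At 1 h it measured 73.6, 123 and 110 CPM in the DMSO libraries against 33.0, 59.4 and 46.1 CPM in the tryptamine libraries, all values being scaled by the trimmed mean of M values (TMM). At 4 h the DMSO libraries had 72.9, 70.7 and 86.0 CPM and the tryptamine libraries 34.8, 62.6 and 44.6 CPM. After recovery the values were 67.4, 67.4 and 71.1 CPM with DMSO and 24.5, 33.7 and 38.7 CPM with tryptamine. The groups did not overlap at any time, and the highest tryptamine library, at 62.6 CPM, lay below the lowest DMSO library, at 67.4 CPM. Of all tested genes, 8 were lower in all 9 tryptamine libraries than in all 9 DMSO libraries, a share of 0.0332%.

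**Figure D1:**
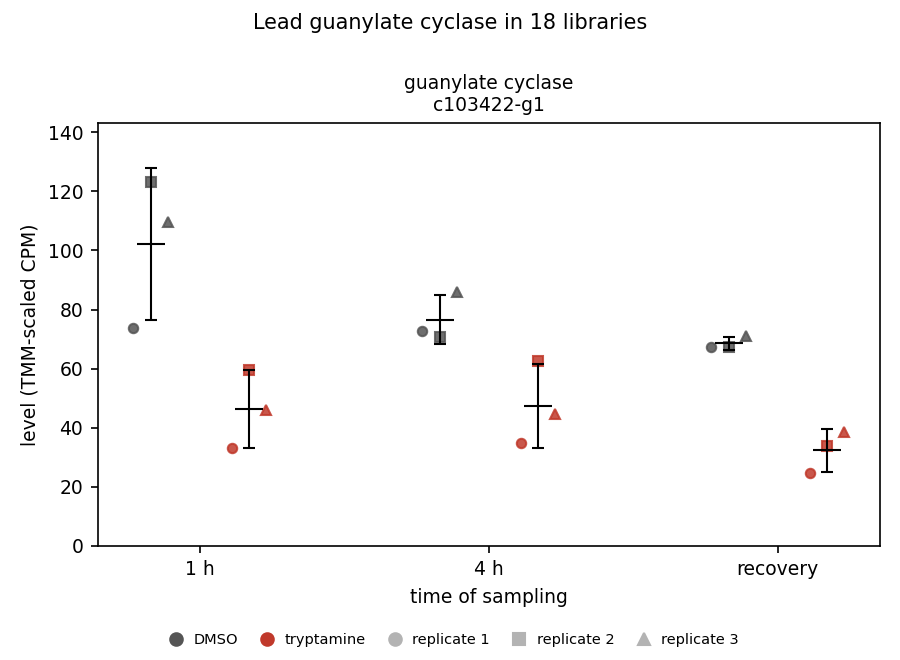
Level of the lead guanylate cyclase c103422-g1 in each of the 18 libraries, in TMM-scaled CPM (vertical axis), by time of sampling (horizontal axis), with DMSO in grey and tryptamine in red. Black bars give the mean and SD of 3 libraries; the tryptamine libraries lie between 24.5 and 62.6 CPM, below every DMSO library.

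In log2 terms the lead cyclase differed between tryptamine and DMSO by -1.15 (SE 0.24) at 1 h, by -0.69 (SE 0.23) at 4 h and by -1.09 (SE 0.24) after recovery. The mean over the 3 times was -0.98 (SE 0.14). Leaving out single libraries gave -1.37 to -0.95 at 1 h, -0.95 to -0.51 at 4 h and -1.24 to -0.92 after recovery. Without replicate 2 of both 4 h groups, the 4 h difference was -0.99. Ranked by their means, the groups ran from DMSO at 1 h (102 ± 25.6 CPM) through DMSO at 4 h (76.5 ± 8.31), DMSO after recovery (68.6 ± 2.18), tryptamine at 4 h (47.3 ± 14.1) and tryptamine at 1 h (46.2 ± 13.2) to tryptamine after recovery (32.3 ± 7.19; SD, n = 3 each). Neighbours in this order overlapped in their libraries, except for DMSO after recovery and tryptamine at 4 h.

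Over time the lead cyclase did not pass the test within either treatment. In DMSO it differed by -0.42 between 4 h and 1 h (SE 0.23, edgeR adjusted p = 0.439) and by -0.57 between recovery and 1 h (SE 0.23, adjusted p = 0.286). With tryptamine, recovery differed from 4 h by -0.55 (SE 0.24, adjusted p = 0.191) and 4 h from 1 h by 0.03 (SE 0.23, adjusted p = 0.977).

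None of the other 11 genes was called between tryptamine and DMSO by edgeR. The test was edgeR's two-sided quasi-likelihood test, with a threshold of 0.05 on p-values adjusted over the 24125 genes by Benjamini-Hochberg. At 1 h it called 0 of the 11 genes, where 0% of all tested genes were called, at 4 h 0 of 11, where 1.5% were called, and after recovery 0 of 11, where 1.86% were called. The mean over the 3 times also gave 0 of 11, beside 4.27% of all genes. At an unadjusted p under 0.05, 1, 1, 2 and 3 of the 11 genes passed in these comparisons, beside 6.44%, 11.7%, 17.2% and 21.8% of all genes. DESeq2 called 0, 0, 2 and 1 of them, beside 16, 606, 1154 and 1732 of all genes (0.0663%, 2.51%, 4.78% and 7.18%). By limma-voom 0 of them were called, beside 0%, 1.39%, 2.01% and 3.65% of all genes.

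The differences of the 11 genes were of both signs and lay between -0.75 and 0.39 in the 3 single comparisons. Of the 11, 7 were lower with tryptamine at 1 h, 8 at 4 h and 8 after recovery, with median log2 differences of -0.07, -0.10 and -0.12. Of all tested genes, 47.2%, 49.4% and 52.6% were lower, with medians of 0.02, 0.00 and -0.03. In the mean over the 3 times 9 of the 11 were lower, with a median of -0.12, beside 49.3% of all genes. Over the alternatives the count of lower genes ran from 5 to 8 at 1 h, from 5 to 8 at 4 h and from 6 to 9 after recovery. The 5 at 1 h was without replicate 3 of DMSO, and the 5 at 4 h without replicate 2 of both 4 h groups. In the mean the count ran from 8 to 10. The time points do not share libraries, but the mean over times is built from the same libraries as the 3 single comparisons.

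**Figure D2:**
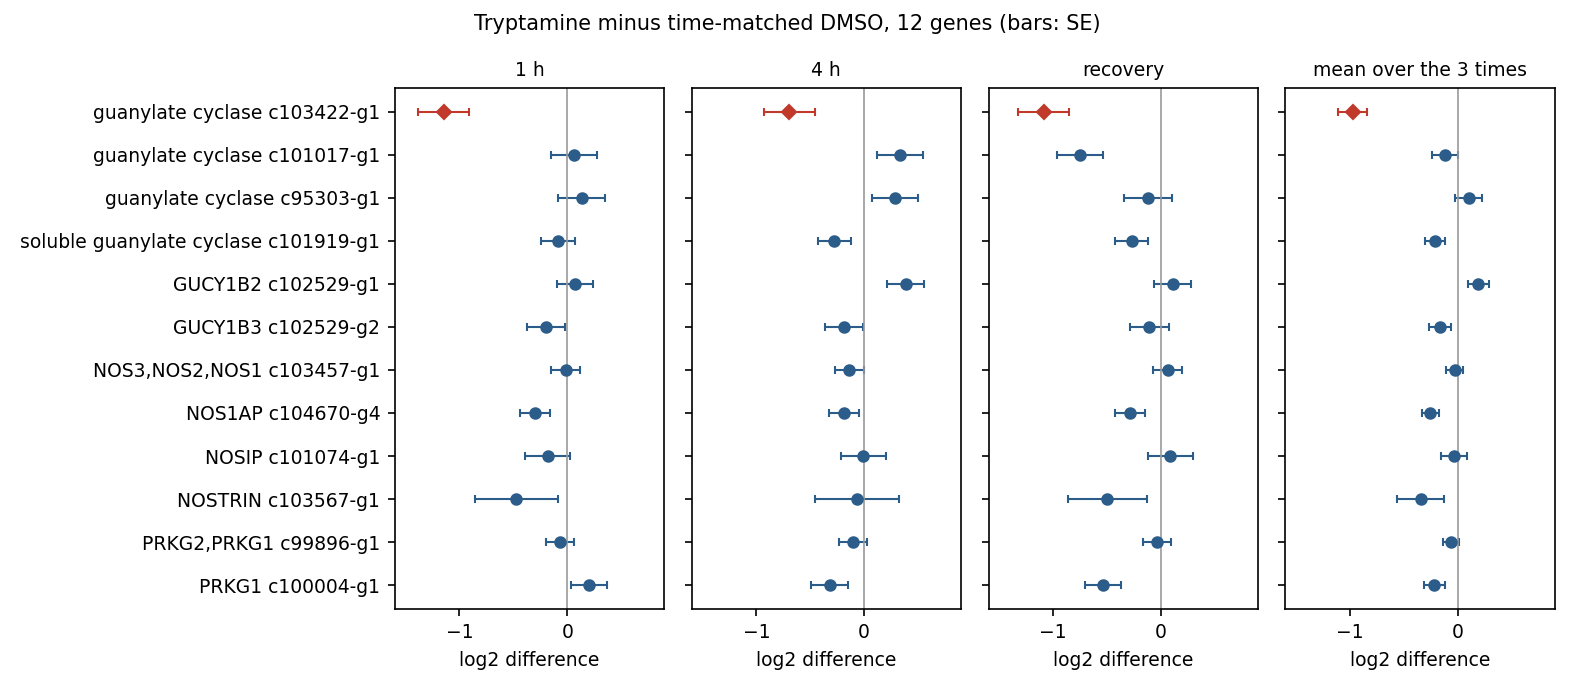
Log2 difference between tryptamine and time-matched DMSO (horizontal axis, 0 marked) for each of the 12 genes (vertical axis) at 1 h, 4 h, recovery and as the mean over the 3 times, with bars giving the SE. The lead cyclase, drawn as a red diamond, lies at -1.15, -0.69, -1.09 and -0.98, and the other 11 genes lie between -0.75 and 0.39 in the 3 single comparisons.

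Nitric oxide synthase was highest at 4 h with both tryptamine and DMSO, and no difference between the treatments was detected. In DMSO it measured 398, 473 and 473 CPM at 1 h, 585, 613 and 780 CPM at 4 h, and 467, 414 and 419 CPM after recovery. With tryptamine it measured 466, 473 and 396 CPM at 1 h, 531, 627 and 638 CPM at 4 h, and 472, 411 and 474 CPM after recovery. Every 4 h library lay above every library of the other times. The share of all tested genes that did so was not counted. In DMSO alone, the 4 h libraries lay above the 1 h libraries for 10.2% of all tested genes and above the recovery libraries for 13.4%. With tryptamine these shares were 7.52% and 9.85%. Tryptamine and DMSO differed by -0.01 (SE 0.13) at 1 h, -0.14 (SE 0.13) at 4 h and 0.06 (SE 0.13) after recovery, with adjusted p of 0.994, 0.774 and 0.863 by edgeR.

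GUCY1B3, the beta subunit of the cyclase that nitric oxide activates, was likewise highest at 4 h in both treatments. In DMSO its libraries had 198, 240 and 244 CPM at 1 h, 330, 440 and 522 CPM at 4 h, and 236, 192 and 213 CPM after recovery. With tryptamine they had 193, 215 and 188 CPM at 1 h, 279, 477 and 381 CPM at 4 h, and 216, 186 and 193 CPM after recovery. The 4 h libraries of both treatments lay above all others, and the share of all tested genes that did so was not counted. Tryptamine and DMSO differed by -0.20 (SE 0.18) at 1 h, -0.18 (SE 0.18) at 4 h and -0.11 (SE 0.18) after recovery, and none of these passed (edgeR adjusted p of 0.867, 0.774 and 0.817).

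**Figure D3:**
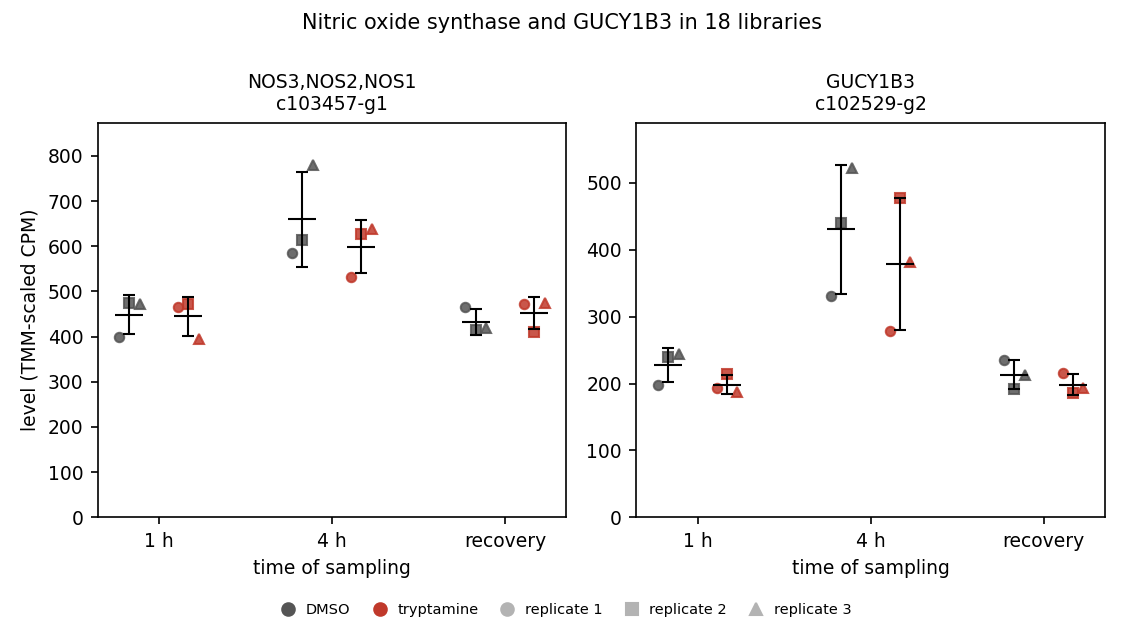
Levels of nitric oxide synthase c103457-g1 (left) and of the soluble guanylate cyclase subunit GUCY1B3 c102529-g2 (right) in each of the 18 libraries, in TMM-scaled CPM (vertical axes), by time of sampling (horizontal axes), with DMSO in grey, tryptamine in red and black bars for the mean and SD of 3 libraries. Both genes were highest at 4 h in both treatments, the synthase at 659 ± 105 CPM and GUCY1B3 at 431 ± 96.2 CPM in DMSO.

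In vehicle sponges between 1 h and 4 h, 2 of the 12 genes rose and 0 fell, beside 2.81% of all tested genes that rose and 1.05% that fell. GUCY1B3 rose from 227 ± 25.4 to 431 ± 96.2 CPM (SD, n = 3), by 0.92 on the log2 scale (SE 0.18, edgeR adjusted p = 0.00420). This call held with each of the 6 libraries left out in turn, at 0.76 to 1.08. Nitric oxide synthase rose from 448 ± 43.1 to 659 ± 105 CPM, a log2 difference of 0.56 (SE 0.14, adjusted p = 0.0216). The synthase did not pass without replicate 1, 2 or 3 of DMSO at 1 h (edgeR adjusted p = 0.130, 0.0532 and 0.0572), without replicate 3 of DMSO at 4 h (0.153), or in a fit of these groups alone (0.0636). Most choanocyte markers had higher values too: 31 of the 38 were higher at 4 h, with a median of 0.19 and 1 called, and their summed level was 1198 to 1347 CPM at 1 h and 1263 to 1430 CPM at 4 h. Their part in the result was not tested.

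Between 4 h and recovery in vehicle sponges, 1 of the 12 genes rose and 2 fell, beside 2.54% and 4.33% of all tested genes. The fallers were the genes that had risen before. GUCY1B3 fell to 214 ± 21.9 CPM, by 1.01 on the log2 scale (SE 0.18, edgeR adjusted p = 0.00206), and did so with each library left out. The synthase fell to 433 ± 29.0 CPM, by 0.61 (SE 0.14, adjusted p = 0.00999), but did not pass without replicate 3 of DMSO at 4 h (adjusted p = 0.0510). Both comparisons share the 3 DMSO libraries at 4 h, so a rise and a fall around 4 h are not independent. Recovery against 1 h called 0 of the 12 genes by edgeR, beside 0.535% of all genes. At an unadjusted p under 0.05 there were 2 (13.4% of all genes), and DESeq2 and limma-voom called 0, beside 1.97% and 0.543% of all genes. There GUCY1B3 differed by -0.09 (SE 0.18) and the synthase by -0.05 (SE 0.13). Between 4 h and recovery the pinacocyte and contractile markers moved as well. Their sums of 4429 to 4815 CPM at 4 h and 3434 to 3820 CPM after recovery did not overlap, and 8 of the 9 were lower, with a median of -0.31 and 0 called. Of the 38 choanocyte markers, 26 were lower, with a median of -0.20, 1 called higher and 1 called lower. The part of these markers in the result was not tested.

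In sponges exposed to tryptamine, GUCY1B3 also rose and fell. From 1 h to 4 h it rose from 199 ± 14.5 to 379 ± 99.0 CPM, by 0.93 on the log2 scale (SE 0.18, edgeR adjusted p = 0.0340), as the only gene of the 12 called, where 0.348% of all tested genes were. It did not pass by limma-voom (0.0620), in a fit of these groups alone (0.138), without replicate 2 of both 4 h groups (0.177), or without replicates 1, 2 or 3 of tryptamine at 1 h (0.164, 0.0693 and 0.171) or replicates 2 or 3 at 4 h (0.216 and 0.149). The synthase differed by 0.43 (SE 0.14, adjusted p = 0.152). Of the 38 choanocyte markers, 29 were lower and 9 higher at 4 h than at 1 h with tryptamine. Their median was -0.15 with 0 called, unlike in DMSO, where most were higher at 4 h. The part of these markers in the rise of GUCY1B3 was not tested. From 4 h to recovery 2 of the 12 genes fell and 0 rose, beside 3.45% and 1.4% of all genes. GUCY1B3 fell by 0.94 (SE 0.18, adjusted p = 0.00860) and did not pass without replicate 2 of tryptamine at 4 h (0.0604), without replicate 2 after recovery (0.0518), without replicate 2 of both 4 h groups (0.0518) or with these groups alone (0.0926). The synthase was not called by edgeR from 4 h to recovery, but DESeq2 called it lower, at -0.43 (DESeq2 adjusted p = 0.0283). Recovery against 1 h called 0 of the 12 by edgeR, beside 0.29% of all genes. At an unadjusted p under 0.05 there were 3 (12.3% of all genes), and DESeq2 and limma-voom called 0, beside 2.08% and 0.265% of all genes. The pinacocyte and contractile markers summed to 4063 to 5183 CPM at 4 h and 3107 to 3851 CPM after recovery with tryptamine, without overlap, and 8 of the 9 were lower after recovery, with a median of -0.33 and 0 called. Of the 38 choanocyte markers, 26 were lower, with a median of -0.19, 1 called higher and 1 called lower. Their part in these falls was not tested.

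The rise of GUCY1B3 and of the synthase at 4 h was not found to differ between the treatments. The change of the tryptamine effect from 1 h to 4 h was 0.01 (SE 0.25) for GUCY1B3 and -0.13 (SE 0.19) for the synthase, both at an edgeR adjusted p of 1.00. Over the 18 libraries the log2 levels of the synthase and GUCY1B3 had a Pearson r of 0.947, and after the group means were removed r was 0.799. These libraries share their groups and their scaling, and r is given as a description.

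Of the other soluble cyclase genes, c101919-g1 was lower with tryptamine without passing. It had 128, 129 and 153 CPM in DMSO and 132, 127 and 127 CPM in tryptamine at 1 h. At 4 h it had 150, 120 and 195 CPM against 142, 112 and 130 CPM, and after recovery 193, 149 and 175 CPM against 150, 144 and 134 CPM. The treatments overlapped at every time, and the mean difference over the 3 times was -0.21 (SE 0.09, edgeR adjusted p = 0.174). GUCY1B2, named here after its values were seen, was the 1 gene of the 11 whose tryptamine libraries all lay above the DMSO libraries at 4 h, where 6.19% of all genes did. It had 59.4, 62.7 and 63.5 CPM with tryptamine and 50.9, 41.7 and 49.5 CPM with DMSO, a difference of 0.39 that did not pass (SE 0.17, adjusted p = 0.366).

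The unannotated cyclase c101017-g1 came nearest to a call after recovery. With DMSO it had 65.8, 51.9 and 52.2 CPM there and with tryptamine 42.3, 22.5 and 36.3 CPM, so the groups did not overlap. The log2 difference was -0.75 (SE 0.21, edgeR adjusted p = 0.0714), and it passed by DESeq2 (adjusted p = 0.0246) and with the replicate number as a block (adjusted p = 0.00924). At 1 h and 4 h the differences were 0.06 (SE 0.21) and 0.34 (SE 0.21), and the libraries overlapped.

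The change in the tryptamine effect on c101017-g1 between 4 h and recovery was -1.08 (SE 0.30, edgeR adjusted p = 0.197). The 3 comparisons of the tryptamine effect between times called 0 of the 11 genes each by edgeR, where 0%, 0.0953% and 0% of all genes were called. DESeq2 called 0 as well, beside 0.39%, 0.779% and 0.00829% of all genes, and limma-voom called 0, beside 0% in each. By edgeR 1, 1 and 2 genes had an unadjusted p under 0.05, beside 4.12%, 11.1% and 7.02% of all genes. In DMSO alone c101017-g1 had 47.6, 41.5 and 56.2 CPM at 1 h and 36.6, 25.1 and 40.8 CPM at 4 h, before the recovery values given above. It rose from 4 h to recovery by 0.73 (SE 0.21, edgeR adjusted p = 0.0467). This call was lost with 5 of the 6 libraries left out, the exception being replicate 3 of DMSO at 4 h, with p up to 0.218, by limma-voom and with non-robust dispersions (0.0524 each), and without replicate 2 of both 4 h groups (0.193). From 1 h to 4 h the difference of -0.50 (SE 0.21) had an edgeR adjusted p of 0.256, and 0.0420 with the replicate number as a block.

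The third unannotated cyclase, c95303-g1, was the least abundant of the cyclase genes in CPM. With tryptamine it had 13.5, 9.31 and 13.3 CPM at 1 h, 15.2, 19.1 and 13.6 CPM at 4 h, and 12.4, 6.72 and 7.56 CPM after recovery. With DMSO it had 11.3, 11.8 and 9.78 CPM, then 11.5, 13.9 and 13.8 CPM, then 11.5, 8.41 and 9.08 CPM. The recovery libraries lay below the 4 h libraries with tryptamine, where those of 9.85% of all genes did. The log2 scale gave a fall of 0.85 (SE 0.22, edgeR adjusted p = 0.0330). That call was lost without replicate 2 of tryptamine at 4 h (0.167), without replicates 2 or 3 after recovery (0.156 and 0.106), without replicate 2 of both 4 h groups (0.159) and with these groups alone (0.165). Tryptamine and DMSO overlapped at each time, and the mean difference was 0.10 (SE 0.13, adjusted p = 0.689).

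The kinases carry the cyclic GMP signal on to their target proteins. PRKG2,PRKG1 had 474, 504 and 527 CPM in DMSO and 498, 500 and 440 CPM in tryptamine at 1 h. At 4 h the values were 439, 419 and 438 CPM against 488, 336 and 386 CPM, and after recovery 534, 474 and 461 CPM against 504, 443 and 489 CPM. The treatments overlapped throughout, with a mean difference of -0.07 (SE 0.08, edgeR adjusted p = 0.651). PRKG1 c100004-g1 had 54.3, 36.8 and 46.7 CPM in DMSO and 31.1, 30.7 and 33.1 CPM in tryptamine after recovery, without overlap. That difference of -0.54 did not pass by edgeR (SE 0.17, adjusted p = 0.103), and it passed by DESeq2 (0.0452) and with the replicate block (0.0455). At 1 h PRKG1 had 42.5, 34.5 and 38.1 CPM in DMSO and 53.3, 38.1 and 41.0 CPM in tryptamine, and at 4 h 40.7, 51.1 and 50.3 CPM against 45.5, 31.5 and 37.0 CPM, with overlap at both times. With c101017-g1 it made up the 2 genes of the 11 whose libraries were all lower with tryptamine after recovery, where 10.6% of all genes were.

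Among the synthase partners, NOS1AP, an adaptor of neuronal nitric oxide synthase in mammals, is singled out here after its values were seen. At 1 h it had 69.0, 74.3 and 77.0 CPM with DMSO and 58.1, 62.4 and 58.9 CPM with tryptamine, the 1 gene of the 11 whose libraries were all lower, where 6.18% of all genes were. At 4 h and after recovery its groups overlapped. The mean difference over the 3 times was -0.26 (SE 0.08, edgeR adjusted p = 0.0694), and it passed by DESeq2 (0.0321), with the replicate block (0.0455) and without replicate 2 of both 4 h groups (0.0294). NOSIP, named for binding nitric oxide synthase, stayed between 10.7 and 19.9 CPM with a mean difference of -0.03 (SE 0.12, adjusted p = 0.904). NOSTRIN, a trafficking protein of the synthase in mammals, lay between 0.595 and 3.48 CPM with a mean difference of -0.34 (SE 0.22, adjusted p = 0.380). Its low counts limit what could be detected.

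**Figure D4:**
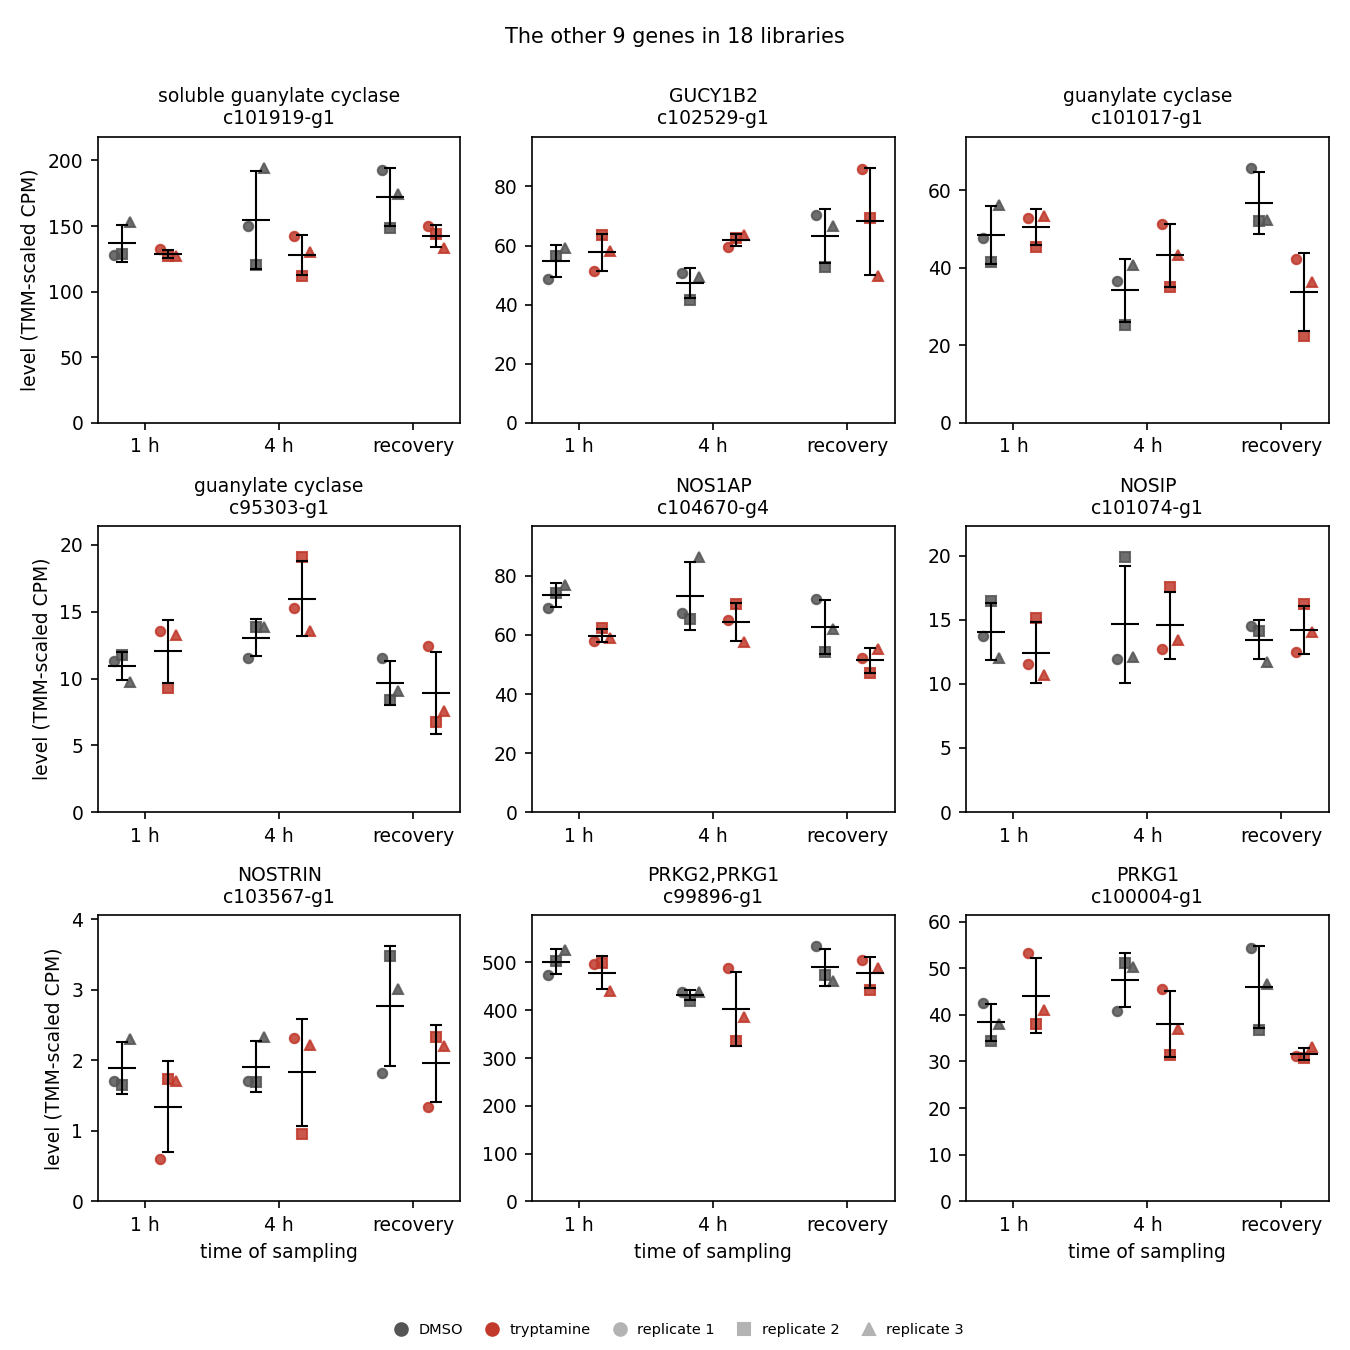
Levels of the other 9 genes in each of the 18 libraries, in TMM-scaled CPM (vertical axes, each from 0), by time of sampling (horizontal axes), with DMSO in grey, tryptamine in red and black bars for the mean and SD of 3 libraries. The treatments separate without overlap for NOS1AP at 1 h, GUCY1B2 at 4 h, and c101017-g1 and PRKG1 c100004-g1 after recovery.

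The pattern of the lead cyclase over the 18 libraries was compared with that of 8724 named genes by Pearson's r of log2(CPM + 1). The most similar was ARPC1A,ARPC1B c78092-g1, a subunit of the complex that branches actin filaments, with r = 0.915. EFHD1 c78536-g1, an EF-hand protein, had r = 0.902, OSTF1 c97599-g3 had r = 0.900, and the actin-severing protein gelsolin c89123-g1 had r = 0.886. With group means removed their r was 0.683, 0.827, 0.693 and 0.794. None of these stayed among the top 5 when Spearman's rho was used. Within the set, NOS1AP was most like the lead cyclase (r = 0.767, rank 85), GUCY1B3 had r = 0.301 and the synthase r = 0.167. With group means removed this order changed, to r = 0.392 for NOS1AP, 0.554 for GUCY1B3 and 0.424 for the synthase.

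Around these 12 genes, 42 others were taken by symbol from 7 lists of the same pathway, of which 41 were tested. With tryptamine 0 of the 41 were called at 1 h and at 4 h by edgeR, 2 fell after recovery, where 0.497% of all genes fell, and 2 fell in the mean over the times, where 2.3% did. None rose. The medians of the 41 were -0.08, -0.04, -0.14 and -0.07.

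The pair that fell was the same in both comparisons. A calmodulin gene, CAM c101992-g1, of a protein whose calcium-bound form switches on nitric oxide synthases in mammals, measured 393.6 ± 90.8 CPM with DMSO and 199 ± 50.6 CPM with tryptamine after recovery, which is a difference of -0.98 (SE 0.23, edgeR adjusted p = 0.0385). Its mean over the times was -0.59 (SE 0.13, adjusted p = 0.0187), which passed with each of the 18 libraries left out. A gene named ABCC4, c73128-g1, for a transporter that exports cyclic nucleotides in mammals, measured 39.8 ± 8.08 CPM with DMSO and 16.9 ± 6.21 CPM with tryptamine after recovery, a difference of -1.23 (SE 0.26, adjusted p = 0.0324). Its mean was -0.71 (SE 0.15, adjusted p = 0.0148) and passed with each library left out. The recovery calls were lost without 5 of the 6 libraries for CAM c101992-g1, with p up to 0.197, and without 4 of the 6 for ABCC4, with p up to 0.177. ABCC4 also did not pass after recovery in a fit of these groups alone (0.0583). ABCC4 is 1 of 11 genes of that name and CAM c101992-g1 is 1 of 3, and read pairs shared among genes were not counted, so both levels are uncertain. None of the other ABCC4 genes was called in the mean over the times. Their differences were of both signs, from -0.44 (c35904-g1, edgeR adjusted p = 0.136) to 0.31 (c81928-g1, adjusted p = 0.238). The other calmodulin genes were not called in the mean over the times. CAM c105055-g1, at 750 CPM, differed by -0.19 (SE 0.08, adjusted p = 0.169), and CAM c45154-g1, at 0.640 CPM, by -0.11 (SE 0.34, adjusted p = 0.883).

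The other 5 lists gave no call for tryptamine. Of the genes named for cyclic nucleotide phosphodiesterases, 0 of 7 were called. They include relatives of PDE4 and PDE8, which break down cyclic AMP in mammals, and of PDE6D, which is no catalytic subunit. PDE9A c97529-g1, which in mammals prefers cyclic GMP, came nearest with a mean difference of -0.35 (SE 0.10, edgeR adjusted p = 0.0556). Kinase targets gave 0 of 2 (RGS4 c100915-g1, 0.16, SE 0.11, adjusted p = 0.434), and adenylate cyclases and protein kinase A, the parallel cyclic AMP branch, 0 of 6 (PRKAR2A,PRKAR2B c97421-g1, -0.14, SE 0.07, adjusted p = 0.254). Arginine supply gave 0 of 3, with ARG2,ARG1 c102843-g1, an arginase that competes with the synthase for arginine, at 0.49 (SE 0.23, adjusted p = 0.243). It differed by -0.16 at 1 h, 0.15 at 4 h and 1.48 after recovery (SE 0.41, adjusted p = 0.0777), with 185 ± 136 CPM with tryptamine and 66.5 ± 5.53 CPM with DMSO there, which did not pass. Tetrahydrobiopterin, the cofactor of the synthase, gave 0 of 4, with PTS c98470-g1 at -0.23 (SE 0.12, adjusted p = 0.276).

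Over time in vehicle sponges, 1 of the 7 phosphodiesterase genes rose and 2 fell from 1 h to 4 h, and 2 rose and 2 fell from 4 h to recovery. Among all 41 pathway genes, 1 rose and 3 fell from 1 h to 4 h, beside 2.81% and 1.05% of all tested genes, and from 4 h to recovery 5 rose and 3 fell, beside 2.54% and 4.33%. The PDE4 gene changed in the same direction as the synthase and GUCY1B3, and the PDE1 genes in the opposite direction. PDE4B,PDE4D,PDE4C,PDE4A c102890-g1, of a family that breaks down cyclic AMP in mammals, rose by 0.68 and then fell by 0.66 (SE 0.14 each, edgeR adjusted p = 0.00780 and 0.00813). PDE1B,PDE1C,PDE1A c101375-g1, of the calmodulin-dependent family, fell by 0.94 (SE 0.18, adjusted p = 0.00376) and then rose by 1.04 (SE 0.18, adjusted p = 0.00166), with each library left out in turn as well. A related gene, PDE1C,PDE1A c103195-g1, fell by 0.59 and then rose by 0.59 (SE 0.16 each, adjusted p = 0.0377 and 0.0286), and both calls were lost without 5 of the 6 libraries, with p up to 0.202 and 0.156, and without replicate 2 of both 4 h groups (0.167 and 0.142). The rise of PDE4 from 1 h to 4 h was lost without replicate 3 of DMSO at 4 h (0.0542). PDE9A fell from 4 h to recovery by 0.67 (SE 0.18, adjusted p = 0.0258), a call lost without 4 of the 6 libraries, with p up to 0.131.

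The summed markers of 3 cell types overlapped between tryptamine and DMSO at every time. After recovery the 9 pinacocyte and contractile markers summed to 3434 to 3820 CPM with DMSO and 3107 to 3851 CPM with tryptamine, the 38 choanocyte markers to 1282 to 1469 and 1084 to 1491 CPM, and the 5 archaeocyte markers to 1341 to 1540 and 1201 to 1625 CPM. At 1 h the pinacocyte and contractile sums were 4216 to 5300 CPM with DMSO and 3446 to 4595 CPM with tryptamine, and 31 of 38 choanocyte markers were higher with tryptamine, with a median of 0.22 and 0 called. At 4 h and in the mean over the times 1 of the 38 choanocyte markers was called lower with tryptamine, RSPH14 c92867-g1, at -1.59 (SE 0.29, edgeR adjusted p = 0.00514) and -0.73 (SE 0.17, adjusted p = 0.0268). Of all tested genes, 1.27% and 2.3% were called lower in these comparisons. Of the 38 markers, 24 were lower at 4 h and 18 in the mean, with medians of -0.14 and 0.02. Of the 5 archaeocyte markers, 2 were called higher in the mean, PIWIL2 c101760-g2 at 0.60 (SE 0.17, adjusted p = 0.0453) and PIWIL1,PIWIL4,PIWIL3 c104940-g2 at 0.48 (SE 0.11, adjusted p = 0.0238). Of all tested genes 1.97% were called higher in the mean, and 4 of the 5 markers were higher, with a median of 0.17. Their part in the values of the lead cyclase was not tested.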

How the data were processed

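The authors deposited raw, unnormalized counts of read pairs for each gene. Per the file headers these came from featureCounts 2.1.1, which kept pairs with both ends mapped, ignored strand and left out chimeric and multi-mapping pairs. STAR was the aligner, per the submitters' processing notes (version not given in the sources). Genes are those of an assembled transcriptome, and names come from the deposited table and state similarity to vertebrate genes. Gene length in the deposited table is the sum over a gene's transcripts. Sequences were not used here.

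From these counts, genes were filtered with filterByExpr (24125 of 39562 kept), scaled by TMM, and fitted in R 4.3.3 with edgeR 4.0.16 (robust quasi-likelihood, 18 libraries, a mean per group, 12 residual degrees of freedom, common biological coefficient of variation of 21.0%). All 13 contrasts were tested two-sided, and p-values were adjusted over all tested genes by Benjamini-Hochberg. The SE given with a log2 difference was worked back from the test, as its absolute value over the square root of F. For the tryptamine differences of the lead gene it is a description only. The members and the lists were chosen with earlier results of these data known. Named in full were the lead gene, members called in any contrast, the 3 with the highest RPKM and, per class, the member with the smallest p in the mean tryptamine contrast. The result of 1 gene is not reported here. From each pathway list came the genes called for tryptamine, or otherwise the smallest p. Alternatives were DESeq2 1.42.0, limma-voom (limma 3.58.1), a stricter filter (at least 1 CPM in 9 libraries) or none, scaling by median of ratios, the compared groups alone, non-robust dispersions, a block for the replicate number and leaving out each library. A fit without both 4 h libraries of number 2 and the libraries left out for pathway genes were chosen after seeing the data. Replicates of a group differed by 8.27 to 48.7 in chi-square over degrees of freedom, so none was a copy. Same-numbered libraries deviated together (every r above 0.1) for tryptamine against DMSO at 1 h (0.332 to 0.402) and 4 h (0.115 to 0.191), for 4 h against 1 h in DMSO (0.179 to 0.272) and tryptamine (0.249 to 0.435), and for recovery against 1 h in tryptamine (0.167 to 0.211). That pairing comes from the data, not from the labels, and it was not taken in the other comparisons. For tryptamine against DMSO after recovery r was 0.0852 to 0.287, the lowest below the limit, and for DMSO at recovery against 4 h it was -0.161 to 0.0612. On simulated counts for tryptamine against DMSO at 1 h, over 23687 genes, the test recovered 4.48% of 1.5-fold changes, 38.8% of 2-fold and 84.8% of 4-fold changes. For DMSO at 4 h against 1 h, over 23674 genes, it recovered 2.99%, 31.3% and 74.2%. In each simulation only 66 or 67 genes were changed by each fold, picked at random whatever their level. The shares therefore need not hold for genes of other levels, or where more genes change.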

Additional observations from a re-analysis of the deposited data

How the results depend on the processing

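The tryptamine differences of the lead cyclase were negative under all alternatives, and leaving out single libraries moved its mean between -1.07 and -0.91. This is a description and no test. The gene was chosen for its lower values with tryptamine, and all its tryptamine libraries lay below all its DMSO libraries. The other 11 genes had 0 calls at 1 h and 4 h under every alternative. Of all genes, at most 0.0663% were called at 1 h, and 0.395% to 2.51% at 4 h. After recovery 2 were called by DESeq2 and 2 with the replicate block (c101017-g1 and PRKG1 c100004-g1), beside 4.78% and 5.51% of all genes. In the mean over the times 1 was called by DESeq2, 1 with the replicate block and 1 without both 4 h libraries of number 2 (NOS1AP). Of all genes, 7.18%, 9.24% and 7.31% were called in these fits. With single libraries left out 0 to 1 was called. That call arose without replicate 2 of tryptamine or of DMSO at 4 h, where 6.73% and 5.07% of all genes were called. The change of the tryptamine effect between recovery and 4 h gave 1 call with the replicate block (c101017-g1, edgeR adjusted p = 0.0383), beside 0.162% of all genes. For tryptamine against DMSO after recovery the same-numbered r was 0.0852 to 0.287, the lowest below 0.1, so the numbers were not taken as pairs there. The block also added c101017-g1 in DMSO at 4 h against 1 h, beside 5.72% of all genes called, and changed no other member's call.

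In DMSO, 4 h against 1 h gave 1 call in the compared groups alone, beside 3.83% of all genes. With single libraries left out it gave 1 to 2, beside 1.9% to 4.81%. In tryptamine, 4 h against 1 h gave 0 by limma-voom, 0 in the compared groups alone and 0 without both 4 h libraries of number 2. Of all genes, 0.0166%, 0.0278% and 0.00403% were called there. With single libraries left out it gave 0 to 1, beside 0.00402% to 3.4%. Recovery against 4 h in tryptamine gave 0 in the compared groups alone and 0 without both 4 h libraries of number 2, beside 0.0548% and 0.641% of all genes. With single libraries left out it gave 0 to 2, beside 0.603% to 7.25%. DESeq2 called 3 for recovery against 4 h in tryptamine, adding the synthase (-0.43, DESeq2 adjusted p = 0.0283), beside 8.03% of all genes. The causes were not tested. Of the 5 genes most like the lead cyclase, 0 stayed by Spearman's rho. No called result reversed. Without both 4 h libraries of number 2, uncalled differences turned positive at 4 h for PRKG2,PRKG1 c99896-g1 (-0.10 to 0.0039), NOSIP c101074-g1 (-0.0057 to 0.13) and NOSTRIN c103567-g1 (-0.06 to 0.17), and in the mean for NOSIP (-0.03 to 0.0065). NOSIP at 4 h was also positive, at 0.0058 to 0.0269, under 5 other alternatives (median of ratios, DESeq2, limma-voom, no filter, replicate block), single left-out libraries aside. At 3 libraries a group, few changes of 1.5-fold are found, as the simulated recovery shows.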
